A study of Mus musculus with 12 samples.

Results

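The T cell receptor complex genes are 10 genes that T cells use to read antigen and to stay alive: *Cd3d*, *Cd3e*, *Cd3g*, *Cd247*, *Lck*, *Cd4*, *Cd8a*, *Cd8b1*, *Thy1* and *Il7r*. They were chosen by name, by looking up every array probe whose symbol in the array's annotation is 1 of these 10. This gave 21 of the 45281 probes, in 9 genes. *Lck*, the kinase that starts receptor signalling, has no probe under that symbol and was not analysed here. After the filter on dim probes, 9 probes in 6 genes remained, among 5498 kept probes in 3822 named genes.

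The T cell receptor itself has chains that bind antigen but cannot signal. The CD3 chains and the zeta chain, encoded by *Cd247*, carry the signal into the cell, and Lck, held by the coreceptors CD4 and CD8, phosphorylates them so that the kinase Zap70 can dock. Thy1 is a surface glycoprotein of mouse T cells, and the interleukin 7 receptor keeps resting T cells alive.

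Whole blood was taken from 3 Pik3cg-/- mice and 3 WT mice, to compare gene expression with and without the catalytic subunit of phosphoinositide 3-kinase gamma, a lipid kinase of blood cells. All mice were females of 13 to 16 weeks with a C57BL/6J background as labelled. The knockout is germline, so every cell type lacks the gene. The line derives in part from another strain, was backcrossed and then bred as a closed colony, and nothing says that the WT animals were its littermates. The WT animals are described only as C57BL/6J Jax mice, so effects of genotype and of colony cannot be told apart. Mice carry the letters A to C within a group, which are not stated to pair a Pik3cg-/- mouse with a WT mouse. RNA of each mouse was hybridized to 2 Illumina MouseWG-6 v2 arrays, whose values were averaged, so that n = 3 mice per genotype. In whole blood, a change in the number of T cells and a change in RNA per T cell cannot be told apart.

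The arrays of Pik3cg-/- mice detected 3558 to 5511 probes and those of WT mice 4648 to 4995, at a detection p under 0.01. Mouse Pik3cg-/- C stood lowest, with 3558 and 3696 probes, and the first array of mouse Pik3cg-/- A highest. *Pik3cg* did not check the labels. Its probe ILMN_1227086 was detected on 2 of 6 arrays of each genotype and measured 7.20 ± 0.24 in Pik3cg-/- mice and 6.94 ± 0.21 in WT mice (log2 intensity, SD, n = 3 each; adjusted p = 0.469 from limma), and its other probe was detected on no array.

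The T cell receptor complex genes were not called in either direction. Of their 9 kept probes, 0 passed an adjusted p of 0.05 in limma (Benjamini-Hochberg over all kept probes), where 2.73% of all kept probes did. At an unadjusted p under 0.05, 1 of the 9 passed, against 21% of all kept probes. The methods' analysis of variance on the authors' log2 values called 0 of the 9 after adjustment (0.0546% of all kept probes) and 1 before it (16.6%), and placed 0 at a difference of 1.5-fold or more (4.49%). Each gene was then taken as its brightest kept probe. The fitted ratio of Pik3cg-/- to WT was 1.13 to 1.25 for the CD3 genes, 1.04 for *Cd8b1*, 1.09 for *Thy1* and 0.940 for *Il7r*. The 95% interval of each of these ratios included 1. In these 6 probes the mice overlapped between genotypes, while 28.3% of all genes had groups that did not overlap. For all 6 the 95% interval of the difference lay within 2-fold in both directions, which held for 80.5% of all genes. Of the other kept probes, only the dim *Cd8b1* probe ILMN_2664929 had an interval without 1 and groups that did not overlap. It was detected on 0 of 6 Pik3cg-/- arrays.

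Detection split the members into those well above background and those under it. *Cd3d*, *Cd3g*, *Thy1* and *Il7r* had 1 probe each, and *Cd3e* and *Cd8b1* 2 probes each, that were detected on all 12 arrays. *Cd4*, the coreceptor of helper T cells, was detected on no array by either of its 2 probes, whose lowest detection p was 0.0940 and whose raw signal reached at most 71.8. *Cd8a*, which pairs with *Cd8b1* in the CD8 coreceptor, was likewise detected on no array, with raw signals of at most 8.21. The zeta chain gene *Cd247* was detected on 1 of 12 arrays, a WT array, by probe ILMN_1256639 and on none by its other 2 probes. Thus the CD8 coreceptor was read only through *Cd8b1*, and the genotypes could not be compared for *Cd247*, *Cd4* and *Cd8a*. A probe not well above background does not show that the gene is silent. *Thy1* had 1 further probe and *Il7r* 4 that were detected on no array.

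**Figure D1:**
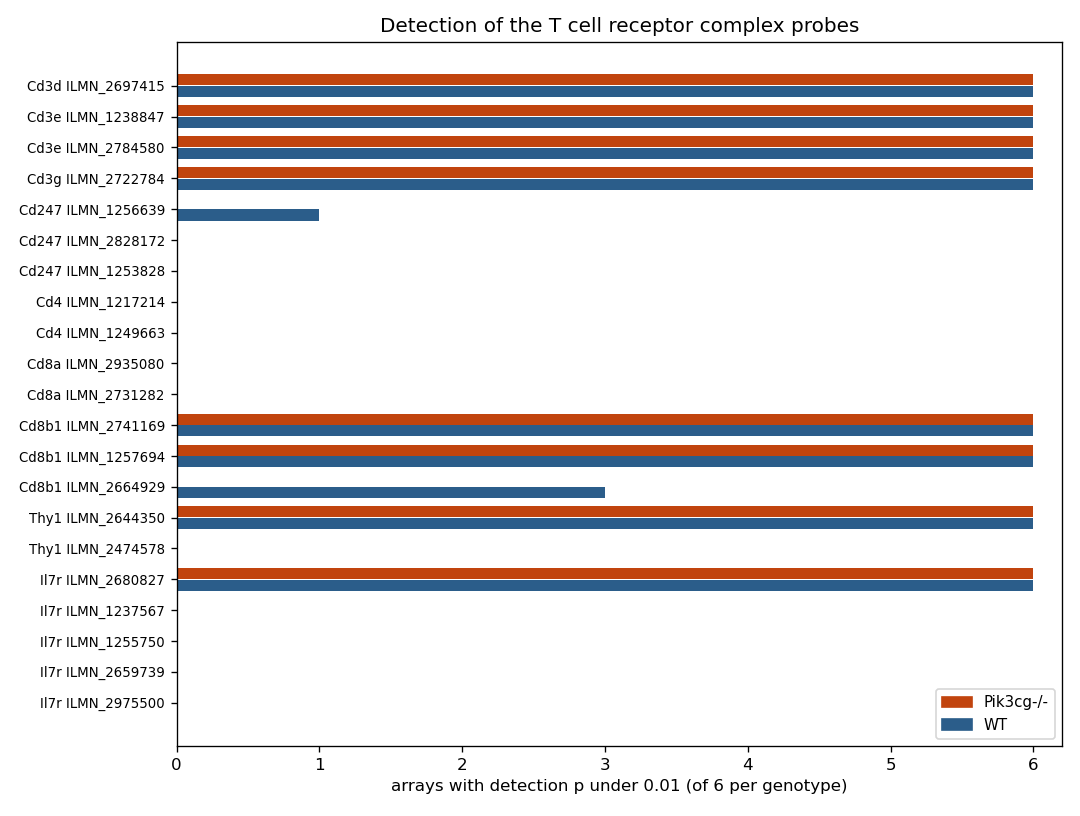
Number of arrays (x axis, of 6 per genotype) on which each of the 21 probes (y axis) had a detection p under 0.01, with Pik3cg-/- in orange above WT in blue. Bars are full for 8 probes, absent for 11, and WT arrays alone detected 1 probe each of *Cd247* (1 array) and *Cd8b1* (3 arrays).

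The 3 CD3 genes lie side by side on chromosome 9. In RefSeq's annotation of GRCm38.p6, *Cd3g* spans positions 44969572 to 44980431, *Cd3d* 44981769 to 44987052 and *Cd3e* 44998735 to 45009663, so that all lie within 40092 bases and *Cd3g* and *Cd3d* are 1337 bases apart. *Cd3g* and *Cd3e* are read from the minus strand and *Cd3d* from the plus strand, so the starts of *Cd3g* and *Cd3d* face away from each other across that gap. Their promoters are shown because these neighbours are the members of one complex with measured values below. Each window runs 5′ to 3′ along its gene, with 250 bases before a RefSeq transcript start and 30 bases after it. For *Cd3d* and *Cd3e* that start lies inside the gene's outer bounds given above. Capitals mark the E-box CAGGTG and the ETS core AGGAAG on either strand, which on the minus strand read CACCTG and CTTCCT.
*Cd3d* (chr9:44981536-44981815, plus strand): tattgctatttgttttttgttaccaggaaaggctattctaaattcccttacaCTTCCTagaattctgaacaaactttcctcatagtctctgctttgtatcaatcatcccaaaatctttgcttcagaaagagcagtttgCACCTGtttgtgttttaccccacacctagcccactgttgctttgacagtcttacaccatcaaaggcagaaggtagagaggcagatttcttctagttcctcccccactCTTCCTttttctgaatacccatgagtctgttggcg
*Cd3g* (chr9:44980402-44980681, minus strand): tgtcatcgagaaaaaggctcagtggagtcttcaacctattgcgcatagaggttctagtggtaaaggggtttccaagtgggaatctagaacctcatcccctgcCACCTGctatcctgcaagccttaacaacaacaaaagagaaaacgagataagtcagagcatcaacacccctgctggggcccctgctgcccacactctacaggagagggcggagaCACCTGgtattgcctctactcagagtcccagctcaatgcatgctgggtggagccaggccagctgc
*Cd3e* (chr9:45009582-45009861, minus strand): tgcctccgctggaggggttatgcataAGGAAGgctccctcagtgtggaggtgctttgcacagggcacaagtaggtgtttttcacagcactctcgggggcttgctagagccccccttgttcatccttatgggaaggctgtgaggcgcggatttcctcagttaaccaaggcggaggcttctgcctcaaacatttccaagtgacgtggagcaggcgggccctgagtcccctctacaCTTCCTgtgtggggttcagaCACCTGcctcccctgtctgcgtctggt
The E-box was found in all 3 windows, in *Cd3g* at 2 places, and in 19.1% of all 32851 promoter windows of this length. The ETS core was found at 2 places each in *Cd3d* and *Cd3e* and not in *Cd3g*, against 32.9% of all windows. The TATA box TATAAA was in none of the 3 (13.1% of all windows), nor was TGTGGT, a core read by RUNX factors (15.6%). The motifs do not overlap each other, and such matches are letters in a window, not binding sites. RefSeq windows were at hand for 7 of the 10 members.

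*Cd3d* encodes the delta chain, which pairs with epsilon. Its log2 intensity was 10.80, 10.51 and 10.21 in Pik3cg-/- mice A, B and C, against 10.16, 10.32 and 10.38 in WT mice A, B and C. Mice Pik3cg-/- A and B lay above every WT mouse and mouse Pik3cg-/- C between WT mice A and B, so the groups overlapped. The log2 fold-change was 0.22 (SE 0.19, 95% interval −0.21 to 0.65, adjusted p = 0.548 from limma), or 1.17-fold.

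*Cd3e* encodes the epsilon chain, found in both CD3 dimers. Probe ILMN_1238847 measured 9.06, 9.03 and 8.58 in Pik3cg-/- mice and 8.49, 8.57 and 8.63 in WT mice. As for *Cd3d*, mice Pik3cg-/- A and B were above the WT range and mouse Pik3cg-/- C inside it. This was the largest log2 fold-change among the 6 genes, at 0.33 (SE 0.18, 95% interval −0.08 to 0.74, adjusted p = 0.333 from limma). Probe ILMN_2784580 measured 8.49, 8.43 and 8.31 in Pik3cg-/- mice, against 8.21, 8.20 and 8.34 in WT mice. Its mice fell in the same arrangement, with a smaller difference of 0.16 (SE 0.15, adjusted p = 0.578 from limma).

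*Cd3g* encodes the gamma chain, the other partner of epsilon. Its values were 9.02, 9.28 and 9.18 in Pik3cg-/- mice and 8.88, 9.17 and 8.88 in WT mice. Here mouse Pik3cg-/- A was the lowest of its group, unlike in the other 5 genes, and WT mouse B lay above it. The log2 fold-change was 0.18 (SE 0.16, 95% interval −0.19 to 0.56, adjusted p = 0.564 from limma). Its sign turned with technical array 1 alone (−0.02) and with scaling of each array to its 75th percentile (−0.03); with that scaling the median over all genes was itself −0.20, against −0.03 after quantile normalization.

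*Cd8b1* encodes the CD8 beta chain of cytotoxic T cells. Probe ILMN_2741169 measured 11.53, 11.16 and 10.88 in Pik3cg-/- mice, against 11.09, 11.15 and 11.14 in WT mice. Mouse Pik3cg-/- A was above and mouse Pik3cg-/- C below all WT mice, which lay close together (SD 0.33 in Pik3cg-/- mice and 0.03 in WT mice). The log2 fold-change was 0.06 (SE 0.19, 95% interval −0.38 to 0.50, adjusted p = 0.883 from limma). It was −0.11 without mouse Pik3cg-/- A and 0.22 without mouse Pik3cg-/- C.

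The other *Cd8b1* probes are dimmer. Probe ILMN_1257694 measured 8.67, 8.55 and 8.18 in Pik3cg-/- mice and 8.81, 8.28 and 8.75 in WT mice, a log2 fold-change of −0.15 (SE 0.21, adjusted p = 0.734 from limma). Probe ILMN_2664929 measured 6.52, 6.49 and 6.49 in Pik3cg-/- mice and 7.03, 6.66 and 7.10 in WT mice. Its groups did not overlap, as was so in this direction for 14.4% of all kept probes, but it was detected on 0 of 6 Pik3cg-/- arrays and 3 of 6 WT arrays. This was the probe that passed without adjustment (unadjusted p = 0.0327, adjusted p = 0.192 from limma), with means of 6.50 in Pik3cg-/- mice and 6.93 in WT mice. The WT mean lay under the level at which probes were detected on Pik3cg-/- arrays (7.28), so no size is given for this difference.

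*Thy1* measured 10.47, 10.19 and 10.09 in Pik3cg-/- mice and 10.15, 10.12 and 10.12 in WT mice. The WT mice spanned under 0.05 and lay inside the range of the Pik3cg-/- mice. The log2 fold-change was 0.12 (SE 0.16, 95% interval −0.25 to 0.49, adjusted p = 0.723 from limma), and it was 0.01 without mouse Pik3cg-/- A and −0.09 after scaling to the 75th percentile.

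*Il7r* encodes the alpha chain of the interleukin 7 receptor. It measured 10.27, 9.64 and 9.56 in Pik3cg-/- mice, against 9.89, 10.001 and 9.85 in WT mice. Mouse Pik3cg-/- A was the highest of all 6 mice, while mice Pik3cg-/- B and C were the lowest. *Il7r* was the only measured member whose fitted difference was below 0, at −0.09 (SE 0.21, 95% interval −0.57 to 0.39, adjusted p = 0.846 from limma). Without mouse Pik3cg-/- A it was −0.31, and without mouse Pik3cg-/- C it was 0.04.

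**Figure D2:**
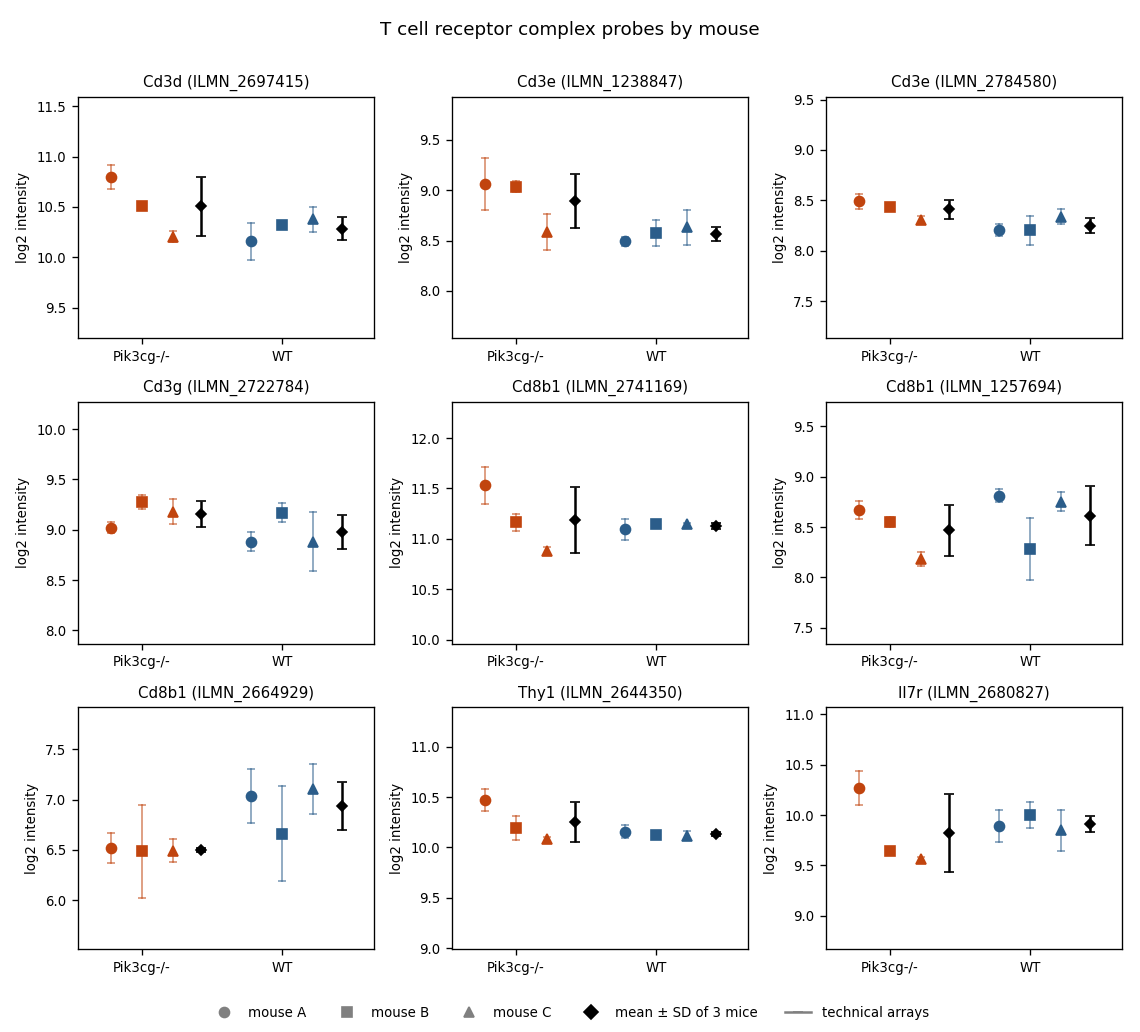
Log2 intensity (y axis, each panel spanning the same range) of the 9 kept probes in Pik3cg-/- mice (orange, left) and WT mice (blue, right). Symbols are mice A, B and C, thin bars join the 2 technical arrays of a mouse, and black diamonds are the mean with the SD of 3 mice. For the brightest probe of each gene, mouse Pik3cg-/- A is the highest of all mice in 5 of the 6 genes, and the SD is larger in Pik3cg-/- mice in 5 of the 6.

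As over all genes, the spread in the members was mostly wider among Pik3cg-/- mice than among WT mice. For the brightest kept probe of each gene, the median SD over the 6 genes was 0.28 in Pik3cg-/- mice and 0.07 in WT mice, beside 0.27 and 0.17 over all genes. The SD was larger in Pik3cg-/- mice for 5 of the 6 members, as it was for 71.6% of all genes. The dimmer *Cd8b1* probes went the other way. Their SD in Pik3cg-/- and WT mice was 0.25 and 0.29 for ILMN_1257694, and 0.02 and 0.24 for ILMN_2664929. The dimmer *Cd3e* probe ILMN_2784580 had 0.09 and 0.08. Mouse Pik3cg-/- A was the highest of the 6 mice in 5 of 6 members (27.4% of all genes) and mouse Pik3cg-/- C the lowest of its group in 5 of 6 (47.5%). Averaged over the members, the distance from the WT mean was 0.36, 0.14 and −0.08 in Pik3cg-/- mice A, B and C, against −0.05, 0.05 and 0.00 in WT mice, on the log2 scale. Thus the Pik3cg-/- group averaged 0.14 ± 0.22 and the WT group 0.00 ± 0.05 (SD, n = 3 each). Mouse Pik3cg-/- C, with the lowest level of the members, also had the fewest detected probes, and the part of detection in this spread was not tested.

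As a list, 5 of the 6 members had a positive log2 fold-change, as did 45.9% of all genes, and their median was 0.15, beside −0.03 over all genes. That count takes *Cd8b1* from its brightest probe. With all kept probes of a gene averaged, *Cd8b1* was at −0.17 and the member median stayed at 0.15. The member median was 0.04 without mouse Pik3cg-/- A and 0.21 without mouse Pik3cg-/- C. Scaling to the 75th percentile moved the median of all genes to −0.20 and that of the members to −0.06, a distance of 0.14 between them, where it was 0.18 after quantile normalization. With that scaling the differences of *Cd3g*, *Cd8b1* and *Thy1* turned negative as well.

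Across the 6 mice, *Cd3d*, *Cd3e*, *Cd8b1* and *Thy1* varied together. Pearson's r was 0.92 between *Cd8b1* and *Thy1*, 0.91 between *Cd3d* and *Cd3e*, and 0.70 between *Cd3e* and *Cd8b1*. *Il7r* followed *Cd8b1* (0.86) more closely than *Cd3e* (0.26). *Cd3g* stood apart, with r from −0.42 with *Il7r* to 0.37 with *Cd3e*, although *Cd3d* is its neighbour on the chromosome (0.12). Over the 15 pairs the median was 0.70. These values describe 6 points that share arrays, and mouse Pik3cg-/- A lies at the upper end of most of them.

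The 10 genes whose values followed the member mean most closely over the 6 mice were *Nfat5*, *Timm10b*, *Tbc1d10c*, *Smap2*, *Ppp3cb*, *Lat*, *Zer1*, *Nfkbid*, *Crlf3* and *Rnf113a2*, with r from 0.97 to 0.99. Of 3816 other genes, 279 (7.31%) had an r above 0.8. *Nfat5*, a transcription factor of the osmotic stress response, lay 0.72, 0.24 and −0.08 from its WT mean in Pik3cg-/- mice A, B and C, against −0.09, 0.10 and −0.01 in WT mice. *Lat*, the adaptor that Zap70 phosphorylates, lay 0.32, 0.10 and −0.11 from it in Pik3cg-/- mice and −0.07, 0.01 and 0.05 in WT mice. None of the 10 was called (adjusted p 0.405 to 0.886 from limma).

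Related T cell genes were taken from lists of receptor chains, receptor signalling, surface and costimulatory molecules, lineage transcription factors and interleukin 7 receptor signalling. Of 98 listed genes, 93 had a probe and 42 were measured. None was called by limma (0 of 42, beside 2.49% of all genes), and 5 of 42 had an unadjusted p under 0.05 (20.9% of all genes). Of the 42, 14 had a positive and 28 a negative difference, with a median of −0.13. In 3 of the 42 every Pik3cg-/- mouse lay above every WT mouse (13.4% of all genes), and in 4 every one lay below (14.9%). The methods' analysis of variance also called 0.

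Among receptor chains, 1 of 6 annotated genes was measured, *Trbv13-2*, a variable segment of the beta chain. It measured 10.58, 10.47 and 10.37 in Pik3cg-/- mice and 10.32, 10.64 and 10.22 in WT mice, with a log2 fold-change of 0.08 (SE 0.17, adjusted p = 0.827 from limma). Its groups overlapped, as did those of every measured CD3 gene.

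Of the signalling genes, 17 of 34 were measured, 5 with a positive difference and 12 with a negative one (median −0.13). The brightest were *Ptpn6*, a phosphatase that dampens the signal (0.12, adjusted p = 0.752 from limma), *Csk*, the kinase that holds Lck inactive (−0.13, adjusted p = 0.720), and the adaptor *Fyb* (−0.38, adjusted p = 0.297). The following 2 were chosen after their values were seen. *Skap1*, an adaptor that links the receptor to integrins, measured 8.89, 8.45 and 8.51 in Pik3cg-/- mice and 7.74, 7.93 and 7.87 in WT mice. *Zap70*, the kinase that docks on the phosphorylated CD3 and zeta chains, measured 8.73, 8.17 and 8.36 in Pik3cg-/- mice, against 7.82, 7.60 and 7.84 in WT mice. In both genes every Pik3cg-/- mouse lay above every WT mouse. They were the only 2 of the 17 for which this was so, beside 13.4% of all genes. The log2 fold-change was 0.77 for *Skap1* (SE 0.18, adjusted p = 0.0572 from limma) and 0.67 for *Zap70* (SE 0.19, adjusted p = 0.101 from limma), so neither passed. *Skap1* passed under 7 of 21 alternative settings and not under the other 14, the methods' analysis of variance among these.

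Surface and costimulatory molecules gave 11 measured genes of 28, with 3 positive and 8 negative differences (median −0.23). The brightest were *Cd27*, a costimulatory receptor of the tumour necrosis factor receptor family (0.49, adjusted p = 0.260 from limma), the adhesion molecule *Cd2* (0.10, adjusted p = 0.783) and *Btla*, an inhibitory receptor (−0.46, adjusted p = 0.303). *Cd69*, an early activation marker also chosen after its values were seen, measured 8.95, 8.79 and 8.41 in Pik3cg-/- mice, against 9.39, 9.49 and 9.44 in WT mice. All Pik3cg-/- mice were below all WT mice, as in 14.9% of all genes, and the log2 fold-change was −0.72 (SE 0.18, adjusted p = 0.0748 from limma). It passed under 7 of 21 alternative settings, the authors' log2 values in limma among them, and not under the other 14, the methods' analysis of variance on those values among these.

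Lineage transcription factors gave 9 measured genes of 20, 2 with a positive and 7 with a negative difference (median −0.28). The brightest were *Ets1* (−0.48, adjusted p = 0.310 from limma), *Klf2*, which keeps resting T cells in circulation (0.24, adjusted p = 0.524), and the chromatin organizer *Satb1* (−0.55, adjusted p = 0.140). Interleukin 7 receptor signalling, beside *Il7r* itself, gave 4 measured genes of 10, 3 of them with a positive difference (median 0.13). The survival genes *Mcl1* (0.09, adjusted p = 0.830 from limma) and *Bcl2* (0.47, adjusted p = 0.320) and the receptor-bound kinase *Jak1* (−0.36, adjusted p = 0.431) were among them.

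**Figure D3:**
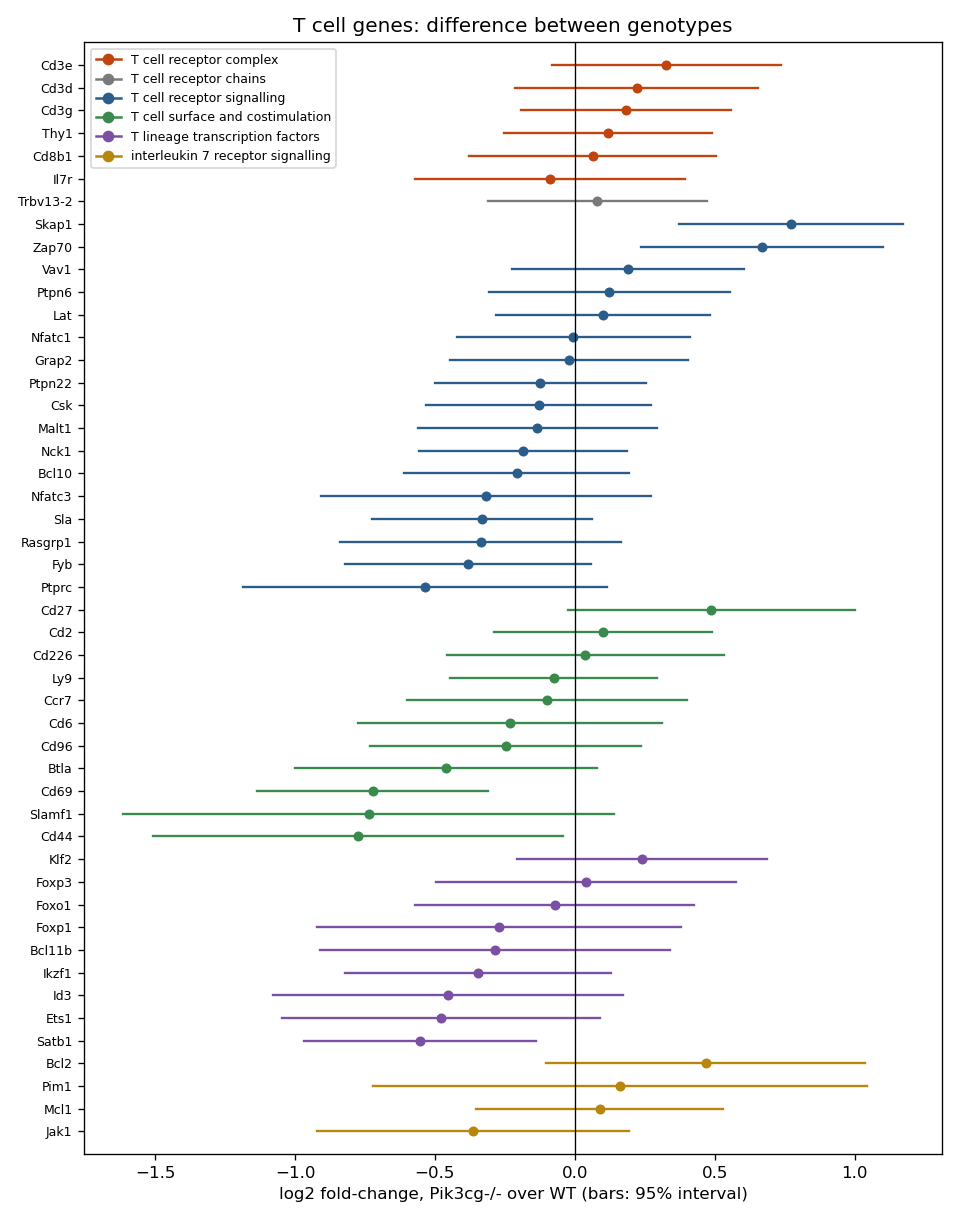
Log2 fold-change, Pik3cg-/- over WT (x axis), of the 6 measured T cell receptor complex genes (top, orange) and 42 related genes grouped by list (colours), with bars for the 95% interval of each difference. Each gene is shown by its brightest kept probe. All 6 intervals of the complex genes include 0. Those of *Skap1* and *Zap70* lie to the right of 0 and those of *Cd69*, *Cd44* and *Satb1* to the left. None of these genes passed an adjusted p of 0.05 in limma.

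Markers of other blood cells moved between the same mice, and their part in the values above was not tested. Platelet markers, 11 measured of 13 listed genes, had summed linear intensities of 14500 to 43200 in Pik3cg-/- mice, against 50800 to 73500 in WT mice, and 0 of the 11 were called on their own (2.49% of all genes). Of the 11, 8 had an unadjusted p under 0.05 (20.9% of all genes), and in 8 every Pik3cg-/- mouse lay below every WT mouse (14.9%). Their median distance from the WT mean was −2.70, −0.86 and −0.63 in Pik3cg-/- mice A, B and C, so mouse Pik3cg-/- A, the highest in the T cell receptor complex genes, was the lowest in platelet markers. Monocyte markers summed to 10200 to 12100 in Pik3cg-/- mice and 14000 to 24500 in WT mice (9 of 13 genes, 0 called, and 6 of the 9 at an unadjusted p under 0.05). The brightest, *Lyz2* and *Cst3*, weigh most in that sum. By gene, 8 of the 9 had a negative log2 fold-change, and in 5 every Pik3cg-/- mouse lay below every WT mouse (14.9% of all genes). *Csf1r* was at −0.0015 and *Adgre1* at 0.32, so the sum does not speak for each gene. Red cell markers summed to 262000 to 272000 in Pik3cg-/- mice and 243000 to 256000 in WT mice (8 of 13 genes). This sum is carried by probes near the top of the arrays' range, such as *Hba-a1* at 16.10 in both genotypes where the highest probe was at 16.12 (log2), so it does not size a difference. By gene, 1 of the 8 was called (2.49% of all genes). This was *Sptb*, the beta spectrin of the red cell skeleton, which was higher (1.72, adjusted p = 0.00276 from limma). Of the 8, 7 had a positive log2 fold-change (45.9% of all genes) and 3 an unadjusted p under 0.05 in limma (20.9%). In 4 every Pik3cg-/- mouse lay above every WT mouse (13.4% of all genes).

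The summed intensities of lymphocyte and of neutrophil markers overlapped between the genotypes. B cell markers summed to 15200 to 26200 in Pik3cg-/- mice and 19800 to 24400 in WT mice (7 of 14 genes), and natural killer cell markers to 3530 to 5810 in Pik3cg-/- mice and 3480 to 5490 in WT mice (6 of 16 genes). Neutrophil markers summed to 15700 to 25200 in Pik3cg-/- mice and 21500 to 28100 in WT mice (8 of 14 genes). None of these 3 lists held a called gene, where 2.49% of all genes were called. By gene, 3 of the 8 neutrophil markers had every Pik3cg-/- mouse above every WT mouse (13.4% of all genes). In 2 of the 8 every one lay below (14.9%), so their sum holds differences of both signs. Among natural killer cell markers 1 of 6 was separate, with the Pik3cg-/- mice above, and among B cell markers 0 of 7, where 28.3% of all genes were separate in either direction. The T cell receptor complex genes summed to 5870 to 8450 in Pik3cg-/- mice and 6250 to 6640 in WT mice. In mice A, B and C of the Pik3cg-/- group, the median distance was 0.38, −0.01 and −0.24 for natural killer cell markers and 0.17, 0.03 and −0.46 for B cell markers, the same order of mice as for the complex genes (0.38, 0.15 and −0.06). Neutrophil markers had this order too (0.31, −0.11 and −0.20), and so did 34.1% of all genes.

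**Figure D4:**
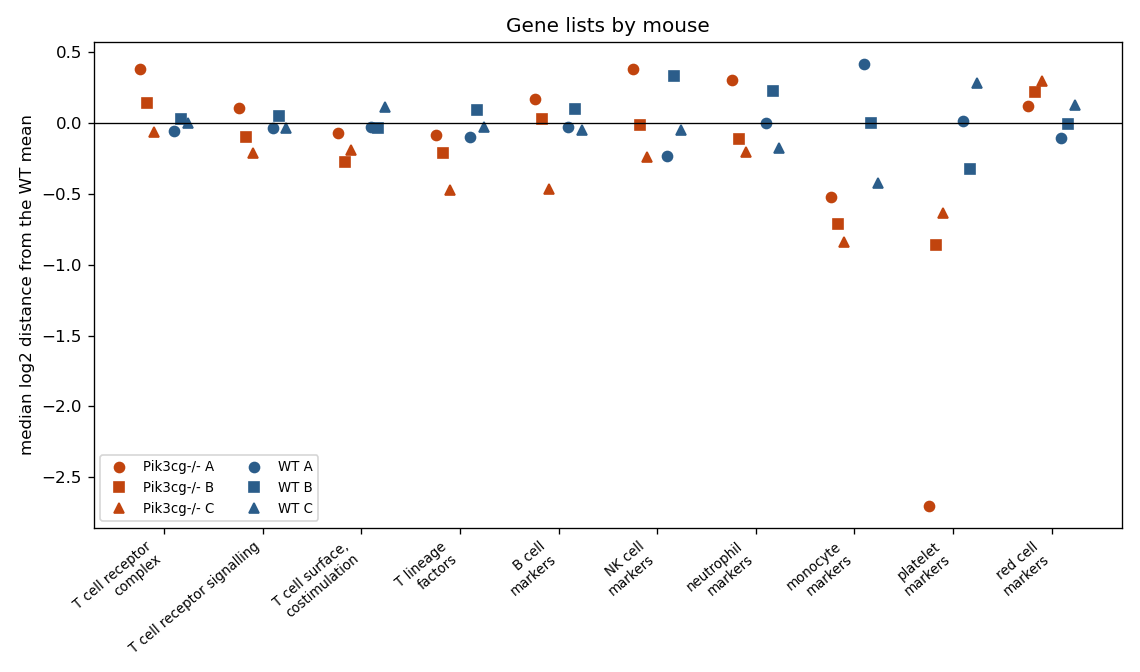
Median log2 distance from the WT mean (y axis) of each gene list (x axis) in Pik3cg-/- mice A, B and C (orange, left) and WT mice (blue, right). The T cell receptor complex genes run from −0.06 to 0.38 in Pik3cg-/- mice around the WT mice, while platelet and monocyte markers lie below 0 in all 3 Pik3cg-/- mice. In WT mice, platelet markers run from −0.32 to 0.28 and monocyte markers from −0.42 to 0.41.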

How the data were processed

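Raw signals are, per the file headers, the average bead intensity per probe and array, already background-subtracted (47.4% to 51.2% of values were below 0), with a detection p-value for each. The authors also deposited log2 values, which were background-subtracted, variance-stabilized and quantile normalized in lumi; they were used only as an alternative. The version of lumi is not given in the sources used here.

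From the raw signals, limma 3.58.1 in R 4.3.3 was run: neqc (normal-exponential background correction from the detection p, offset 16, quantile normalization, log2), averaging of the 2 arrays of a mouse, and lmFit and eBayes on 6 mice. A probe was kept if 3 or more of the 12 arrays gave it a detection p under 0.01. Fold-changes are Pik3cg-/- over WT. Each gene stands as its brightest kept probe, named from the platform annotation (4615 of 5498 kept probes). The limma step was also run on simulated data with the same spread in both genotypes. That run cannot show how limma behaves with the unequal spread of the members. The number of mice, 3 per genotype, limits the precision, and the sources do not give the arrays' chips.

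The members and lists were chosen with earlier results of these data known. Named beside all members and *Pik3cg* are, of each T cell list, called genes or otherwise the 3 brightest, called genes of the other lists, and the 10 genes most like the member mean; exceptions are marked. Alternatives were the authors' log2 values, background, offset, normalization, filter, single arrays, the mouse as random block, array weights, a trended robust prior, all probes averaged, the methods' analysis of variance, a replicate block, and each mouse left out. Sequences and positions are from RefSeq, GRCm38.p6. Plots were made in matplotlib 3.10.9 under Python 3.11.15.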

Additional observations from a re-analysis of the deposited data

How the results depend on the processing

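No member probe was called under 19 of 20 alternatives. Array weights called 2 (*Cd3e*, 0.46, adjusted p = 0.0105 from limma where the alternatives ranged up to 0.839, and the dim *Cd8b1* probe), with weights from 0.251 for mouse Pik3cg-/- C to 9.82 for mouse Pik3cg-/- B, whose estimation did not converge. Of 126 refits of the 6 measured genes, 1 passed the threshold. In 92 of the 126 the fold-change differed from that of the main fit, and 82 of these kept their direction. The rest have the same fold-change by construction. Among the 92, the methods' analysis of variance repeats the fold-changes of the authors' log2 values in limma, as both use the same values. Reversed were *Cd3g* (−0.025), *Cd8b1* (−0.13) and *Thy1* (−0.091) with the 75th percentile, *Cd3g* (−0.016) with technical array 1, *Cd8b1* (−0.043) and *Il7r* (0.13) with array 2, and *Cd8b1* (−0.17) with all probes averaged, the dim one included. Leaving out each mouse gave −0.11 to 0.22 for *Cd8b1* and −0.31 to 0.041 for *Il7r*, with 0.0032 without mouse Pik3cg-/- B. The member median moved past the spread between mice only with the 75th percentile (−0.058), and was 0.041 to 0.21 with each mouse left out.

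Related T cell genes called numbered 0, against 1 on the authors' log2 values, without background correction, with an offset of 50, cyclic loess, array 2 or all probes averaged, 2 with the 75th percentile or a trended robust prior, 3 with 12 arrays and the mouse as random block, 14 with array weights, and 0 to 1 with each mouse left out.

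Over all probes, 150 were called (52.7% higher), against 307 with the 75th percentile (21.8% higher), 86 without the filter, 83 with array 1, 471 with the mouse as random block, 259 with the trended robust prior, 1761 with array weights, 3 by the methods' analysis of variance, and 40 to 344 with each mouse left out (344 without Pik3cg-/- A, 46 without Pik3cg-/- B, 41, 40 and 43 without WT A, B and C). The causes were not tested. Same-lettered mice deviated from their group means with correlations of 0.18, −0.18 and 0.18, and differently lettered mice with −0.30 to 0.21. With 3 mice per group these values cannot settle whether the letters pair mice. The letters were not taken as pairs because they are not stated to be. A replicate block called 111 probes, 0 member probes and 0 related genes and kept the member median at 0.15. A slide block was not run, as chips are not given. With 3 mice per genotype and unequal spread, the intervals above are not limits of detection. Log2 fold-changes as large as those of *Skap1* (0.77) and *Cd69* (−0.72) were not called either.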
